A study of Rattus norvegicus with 18 samples.

Results

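Mitochondrial ribosomal protein genes encode the proteins of the ribosome that works inside mitochondria. The members described here are the probes of the deposited expression table whose annotated gene symbol starts with Mrpl or Mrps followed by a number. That rule found 59 probes for 59 different genes, 1 probe per gene, among 22523 probes in all, of which 13793 carried a gene symbol and 8730 carried none. By subunit, 21 members belong to the small and 38 to the large subunit. A counterpart in bacterial ribosomes was counted for 33, and 26 were counted as specific to mitochondria. The 26 include Mrps18a and Mrps18b, although both are relatives of bacterial S18. Mrps18a and Mrps30 were counted with the large subunit, where ribosome structures place their proteins despite the gene names. A further 3 probes of the family are annotated in lower case (mrpl9, mrpl11 and mrpl24) and lie outside the rule, and Mrpl12 has no probe among the members. Members lie on 16 chromosomes, 12 of them on chromosome 1, where Mrpl46 and Mrps11 are the one pair of neighbouring genes.

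The mitochondrial ribosome translates the few messages of the mitochondrial genome, all of which code for subunits of the respiratory chain and of ATP synthase. Its ribosomal RNAs come from the mitochondrial genome, but every one of its proteins is encoded in the nucleus, made in the cytosol and imported, so that products of both genomes meet in 1 particle. The small subunit binds the message and reads the codons, and the large subunit joins the amino acids and holds the exit tunnel of the new chain. In neurons, the respiratory chain supplies most of the ATP, and inherited defects of several of these proteins in humans impair the brain, heart or hearing.

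The samples were 18 arrays, 1 per female Wistar rat pup, each pup from a different litter of its group. The dams received caudal injections of vehicle, of BDE-47 at 0.002 mg/kg or of BDE-47 at 0.2 mg/kg, where BDE-47 is a brominated diphenyl ether used in flame retardants. All groups, vehicle included, received ethanol, Cremophor EL and water. Total brain was taken on postnatal day 10 after 3 injections per dam, and frontal lobe on postnatal day 41 after 6 injections, according to the labels, although the design text of the series gives postnatal day 10 for both tissues. The 6 groups were therefore vehicle, 0.002 mg/kg and 0.2 mg/kg in total brain and the same 3 in frontal lobe, with 3 pups each. Tissue, age and number of injections differ together and cannot be told apart. All p-values measure the spread between these pups, and 3 pups per group limit their precision.

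The tissue labels were checked against marker genes in the vehicle groups. Of 7 measured markers of cerebellum and hindbrain, 6 were called lower in frontal lobe than in total brain, Pcp2 of Purkinje cells by -2.40 on the log2 scale. Both measured markers of cortical projection neurons were called higher, Slc17a7 by 1.16. Among all probes, 43.7% were called lower and 9.01% higher. Array medians lay near 7.83 in frontal lobe and 7.89 in total brain. Within a tissue, the array that correlated least with the others was replicate 2 of 0.2 mg/kg in frontal lobe, with a mean correlation of 0.986 against a next lowest of 0.988. In total brain it was replicate 2 of 0.002 mg/kg, at 0.989 against 0.993. Both arrays return below, because the members stood apart on them too.

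Promoter sequences were taken from RefSeq on the rat build GRCr8, from 250 bases before to 50 bases after the annotated start, for the 48 members that the sequence table holds. They were searched on both strands for GCGCATGC (the core of the site of NRF1, a factor known to act on nuclear genes of mitochondrial proteins), CCGGAAG (an ETS site of the kind GABP binds) and AAGATGGC (a YY1 site). The first of these largely overlaps its own reverse complement. Of the 48 member promoters, 16 (33.3%) held the GABP letters, 14 (29.2%) the YY1 letters and 5 (10.4%) the NRF1 letters, and 27 (56.2%) held at least one. Among the promoters of 19005 protein-coding genes the same shares were 11.2%, 3.92%, 3.23% and 16.8%, and among the 10970 of them with a named probe they were 12.8%, 4.25%, 3.76% and 18.9%. The GC content was 55.9% in members against 55.1% in all. A match describes letters in this window and says nothing of a bound factor. Shown are 4 members whose values are given array by array below and whose promoters carry these letters: Mrps18a and Mrps7 from the comparison of the doses in frontal lobe, and Mrpl4 and Mrps26, first by p in the comparisons of 0.002 mg/kg with vehicle. Mrpl15 and Mrpl16 are not in the table. Capitals mark the GABP and YY1 letters, on either strand: Mrps18a (chr9:22367331-22367630, minus strand) holds both, at -38 and 1 relative to the start, Mrps7 (chr10:101342392-101342691, plus strand) holds the YY1 letters at 7, and Mrps26 (chr3:138222074-138222373, plus strand) and Mrpl4 (chr8:27815521-27815820, plus strand) hold the reverse complement of the GABP letters at 18 and 1.
Mrps18a: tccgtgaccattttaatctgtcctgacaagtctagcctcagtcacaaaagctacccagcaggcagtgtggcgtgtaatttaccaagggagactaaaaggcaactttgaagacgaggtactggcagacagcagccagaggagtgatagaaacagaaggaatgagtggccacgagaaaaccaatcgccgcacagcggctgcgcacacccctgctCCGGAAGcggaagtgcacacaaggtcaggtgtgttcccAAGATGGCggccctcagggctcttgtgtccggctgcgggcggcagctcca
Mrps7: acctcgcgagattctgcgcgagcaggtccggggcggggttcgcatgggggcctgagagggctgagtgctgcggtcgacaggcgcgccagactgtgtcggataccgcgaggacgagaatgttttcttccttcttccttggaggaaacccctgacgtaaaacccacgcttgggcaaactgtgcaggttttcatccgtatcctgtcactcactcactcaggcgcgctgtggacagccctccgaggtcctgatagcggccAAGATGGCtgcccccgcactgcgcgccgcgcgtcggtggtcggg
Mrps26: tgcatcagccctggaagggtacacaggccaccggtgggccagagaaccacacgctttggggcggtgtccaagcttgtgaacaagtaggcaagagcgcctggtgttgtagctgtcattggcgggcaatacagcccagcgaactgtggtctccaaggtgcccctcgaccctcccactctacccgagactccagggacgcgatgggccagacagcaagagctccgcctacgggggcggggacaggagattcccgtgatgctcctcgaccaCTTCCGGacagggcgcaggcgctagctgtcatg
Mrpl4: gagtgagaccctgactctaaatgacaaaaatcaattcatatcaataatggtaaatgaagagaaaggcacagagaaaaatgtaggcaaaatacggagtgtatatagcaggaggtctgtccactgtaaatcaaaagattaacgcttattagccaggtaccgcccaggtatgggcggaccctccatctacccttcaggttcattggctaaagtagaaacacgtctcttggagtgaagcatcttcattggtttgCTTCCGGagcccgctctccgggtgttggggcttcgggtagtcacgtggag

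The family was well measured. Member means over all arrays ran from 7.67 to 12.43 with a median of 10.80 on the log2 intensity scale, and 56 of 59 members lay above the median brightness of all probes. Of all probes, 57.1% averaged less than 8, close to the lowest signal. The brightest member probes were those of Mrps33, Mrps18a, Mrps18b, Mrpl4 and Mrpl13. The dimmest were those of Mrps31, Mrpl30 and Mrpl14, all under 8, followed by Mrps15 and Mrpl51. For the first 3 of these the values carry little information. Probe brightness also depends on the probe, so these positions are no ranking of message levels.

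Mrpl18, which binds RNA in the central protuberance of the large subunit, took one of only 2 levels in any pup. In total brain it read 10.99, 10.98 and 11.20 in vehicle pups, 8.50, 11.08 and 8.39 at 0.002 mg/kg, and 8.50, 10.89 and 8.38 at 0.2 mg/kg. In frontal lobe it read 8.82, 11.52 and 8.68 in vehicle pups, 11.26, 8.67 and 11.32 at 0.002 mg/kg, and 11.17, 11.53 and 8.80 at 0.2 mg/kg. Thus 8 pups were at 8.82 or below, 10 pups at 10.89 or above, and none lay in the gap of 2.07 between. Pups of both levels occurred in 5 of the 6 groups; the vehicle pups of total brain were all high. No other member had a gap of even 1 between neighbouring arrays with at least 3 arrays on either side, and among all probes 122 (0.542%) had one. Mrpl18 was therefore left out of the means per array below, a choice made after its values were seen, and its differences between groups only count how many pups sat at each level.

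The mean of the other 58 members per array overlapped between dose groups, with 1 exception in frontal lobe. In total brain it was 10.42, 10.51 and 10.69 in vehicle pups, 10.45, 10.30 and 10.48 at 0.002 mg/kg, and 10.56, 10.36 and 10.56 at 0.2 mg/kg. The 3 groups overlapped. In frontal lobe it was 10.43, 10.35 and 10.61 in vehicle pups, 10.36, 10.31 and 10.33 at 0.002 mg/kg, and 10.45, 10.68 and 10.48 at 0.2 mg/kg. Here the 0.2 mg/kg pups all lay above the 0.002 mg/kg pups, and the vehicle pups overlapped both. As group values, frontal lobe averaged 10.46 ± 0.13 in vehicle, 10.33 ± 0.02 at 0.002 mg/kg and 10.54 ± 0.12 at 0.2 mg/kg (SD, n = 3 each). Single arrays carried much of the range: 34 of 59 members had their highest frontal lobe value on replicate 2 of 0.2 mg/kg, 40 had their highest total brain value on replicate 3 of vehicle, and 33 had their lowest on replicate 2 of 0.002 mg/kg.

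**Figure D1:**
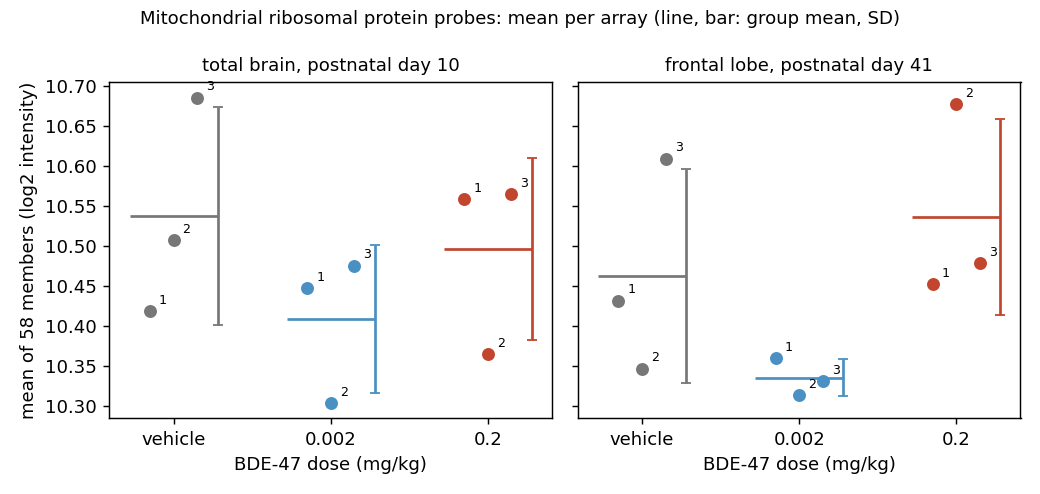
Mean log2 intensity of 58 members (all but Mrpl18) on each array, by BDE-47 dose in mg/kg, total brain at left and frontal lobe at right. Points are pups labelled with their replicate number, lines are group means and bars are SD; the 0.2 mg/kg frontal lobe pups (10.45 to 10.68) lie above the 0.002 mg/kg pups (10.31 to 10.36), and the other groups overlap.

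Between the 2 doses in frontal lobe, 3 members were called higher at 0.2 mg/kg than at 0.002 mg/kg and none lower, all 3 in the large subunit: Mrps18a, Mrpl16 and Mrpl15. A call means an adjusted p under 0.05 in limma, with Benjamini-Hochberg adjustment over all 22523 probes, and the 3 calls are 5.08% of the members, where 2.87% of all probes were called in this comparison. At an unadjusted p under 0.05, 26 members (44.1%) were higher and 1 (1.69%) was lower, where 9.33% of all probes were higher and 9.4% lower. As 56 of 59 members lay above the median brightness, all probes are an unlike background, and shares among brighter probes alone are not given here. The median log2 difference of the members was 0.22, with 48 of 59 above 0, against 0.00 for all probes and -0.00 for probes at or above the median brightness. By class, the median was 0.17 in the small and 0.23 in the large subunit, and 0.22 both in members counted with a bacterial counterpart and in those counted without.

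Mrps18a encodes one of 3 mammalian relatives of the bacterial small subunit protein S18, and its protein sits in the large subunit. It read 12.73, 12.85 and 12.64 in frontal lobe at 0.2 mg/kg, against 12.09, 11.98 and 11.95 at 0.002 mg/kg. The groups did not overlap, the difference was 0.74 ± 0.13 (SE), a fold of 1.66, and the adjusted p was 0.0287. Mrpl16, a conserved protein of the large subunit, read 9.28, 9.26 and 9.25 at 0.2 mg/kg, against 8.77, 9.02 and 8.88 at 0.002 mg/kg, a difference of 0.37 ± 0.07 with an adjusted p of 0.0338. Its 3 values at 0.2 mg/kg were nearly identical and above every other frontal lobe array. Mrpl15, another conserved large subunit protein, read 9.53, 9.75 and 9.62 at 0.2 mg/kg, against 9.37, 9.19 and 9.28 at 0.002 mg/kg, a difference of 0.35 ± 0.07 with an adjusted p of 0.0458. The calls rest on all 6 arrays: without any single one of them Mrpl16 and Mrpl15 were no longer called, and Mrps18a was called only without replicate 3 of 0.2 mg/kg. In a fit of these 6 arrays alone Mrpl15 was not called, at an adjusted p of 0.0543.

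The members that followed in order of p were conserved proteins of the small subunit, none of them called. Mrps12, part of the decoding centre, read 11.80, 12.12 and 11.74 at 0.2 mg/kg, against 11.45, 11.43 and 11.37 at 0.002 mg/kg, a difference of 0.47 ± 0.11 with an adjusted p of 0.0614. Mrps7, a protein of the small subunit head, read 12.16, 12.33 and 12.07 at 0.2 mg/kg, against 11.70, 11.64 and 11.46 at 0.002 mg/kg, and differed by 0.59 ± 0.14 with an adjusted p of 0.0641. Mrps24, the relative of bacterial S3, read 11.58, 12.04 and 11.77 at 0.2 mg/kg, against 11.13, 11.32 and 11.40 at 0.002 mg/kg, and differed by 0.52 ± 0.12 with an adjusted p of 0.0679. All of these had separate groups, and replicate 2 of 0.2 mg/kg was the highest array for each. Throughout, separate groups add no support, because members were picked by p and the share over all probes was not counted. The remaining higher members at an unadjusted p under 0.05 differed by 0.15 (Mrps14) to 0.48 (Mrpl23). In the other direction Mrps2 stood alone at an unadjusted p under 0.05: it read 8.95, 8.89 and 9.0 at 0.2 mg/kg, against 9.17, 9.10 and 9.30 at 0.002 mg/kg, a difference of -0.25 ± 0.07 with an adjusted p of 0.121. The next lower members by p were Mrpl17 (-0.83, adjusted p 0.368), Mrpl30 (-0.06, 0.398), Mrps30 (-0.08, 0.413) and Mrpl35 (-0.12, 0.596). Of these, Mrpl30 lies at the floor of the arrays and Mrpl17 spread over 9.52, 9.99 and 8.4 within the 0.2 mg/kg group.

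**Figure D2:**
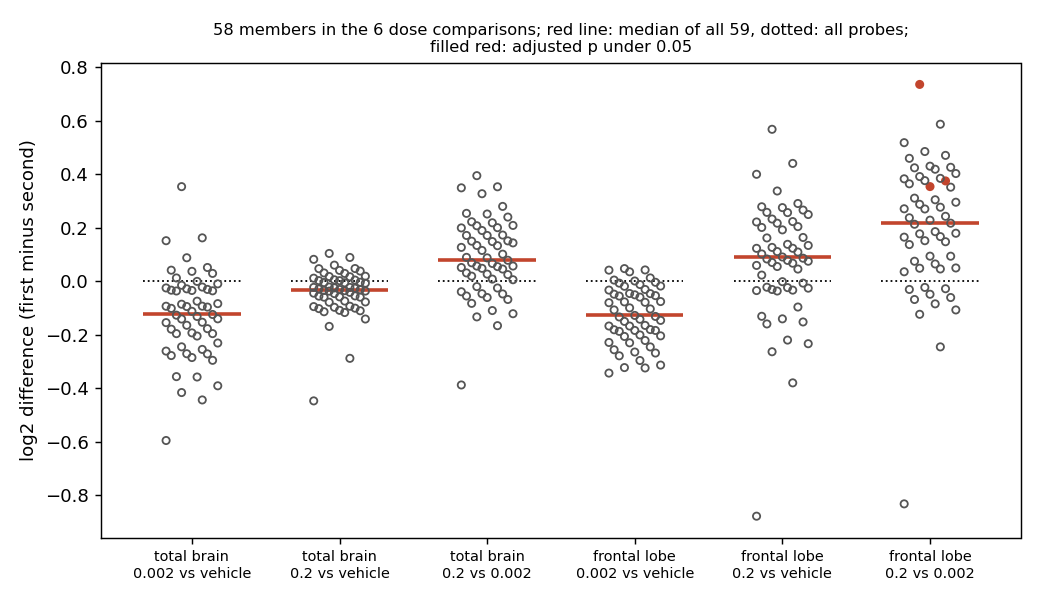
Log2 difference of 58 members (all but Mrpl18) in the 6 dose comparisons, first group minus second. Open points are members, filled red points those with an adjusted p under 0.05, the red line is the median of all 59 members and the dotted line that of all probes; only 0.2 against 0.002 mg/kg in frontal lobe holds called members, 3 of them, with a median of 0.22.

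Against vehicle, the 0.2 mg/kg frontal lobe showed no called member, where 1.14% of all probes were called. At an unadjusted p under 0.05, 6 members (10.2%) were higher, where 7.55% of all probes were. Lower were 5 members (8.47%), where 7.44% of all probes were, so both shares lie near those of all probes. The median difference was 0.09 with 40 of 59 above 0, against 0.00 for all probes. Mrps18a came nearest: its vehicle pups read 12.21, 11.88 and 12.42, all below the 0.2 mg/kg pups given above, a difference of 0.57 ± 0.13 with an adjusted p of 0.0793. Mrpl16 differed by 0.27 ± 0.07 (adjusted p 0.103), Mrps7 by 0.44 ± 0.14 (0.174), Mrpl19 by 0.28 ± 0.10 (0.262), Mrps14 by 0.16 ± 0.06 (0.287) and Mrps12 by 0.27 ± 0.11 (0.297). Each of these, picked by p, was separate from vehicle except Mrpl19, and they belong to both subunits, as did the 5 lower members. Mrpl35, a large subunit protein, read 10.22, 10.64 and 10.46 at 0.2 mg/kg, against 10.83, 10.71 and 10.92 in vehicle pups, a difference of -0.38 ± 0.10 with an adjusted p of 0.119. Mrps2 differed by -0.26 ± 0.07 (adjusted p 0.140), Mrpl4, which lines the exit tunnel, by -0.15 ± 0.04 (0.146), Mrps30 by -0.13 ± 0.05 (0.247) and Mrpl47 by -0.23 ± 0.09 (0.271). One vehicle pup decides the count: without replicate 3 of frontal lobe vehicle, 7 members were called higher, among them Mrps18a (0.69, adjusted p 0.0199) and Mrps7 (0.59, adjusted p 0.0231). The calls over all probes in that fit are not given here, so the 7 have no background beside them.

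At 0.002 mg/kg in frontal lobe, no member was called against vehicle, and neither was any probe (0% of all). The members leaned lower: the median was -0.13 with 51 of 59 below 0, against 0.00 for all probes. At an unadjusted p under 0.05, none were higher, where 3.01% of all probes were. Lower were 7 members (11.9%), where 2.1% of all probes were, and all 7 encode large subunit proteins. Mrpl4 read 11.89, 11.95 and 12.05 at 0.002 mg/kg, against 12.23, 12.17 and 12.22 in vehicle pups. The groups did not overlap, and the difference was -0.25 ± 0.04 with an adjusted p of 0.910. The others were Mrpl15 (-0.28), Mrpl42 (-0.32), Mrpl35 (-0.26), Mrpl32 (-0.31), Mrpl34 (-0.34) and Mrpl41 (-0.26), with the same adjusted p. For Mrpl4 and Mrpl35 both doses lay below vehicle, whereas Mrpl15 read 9.52, 9.49 and 9.66 in vehicle pups, above the 0.002 mg/kg pups and overlapping the 0.2 mg/kg pups. The comparisons of both doses with vehicle share the vehicle pups. Without replicate 3 of vehicle the median was -0.04. Of the 8 members above 0, the first by p were Mrpl30 (0.03), Mrpl18, Mrpl19 (0.04), Mrpl49 (0.04) and Mrpl48 (0.05), with adjusted p between 0.926 and 0.987.

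**Figure D3:**
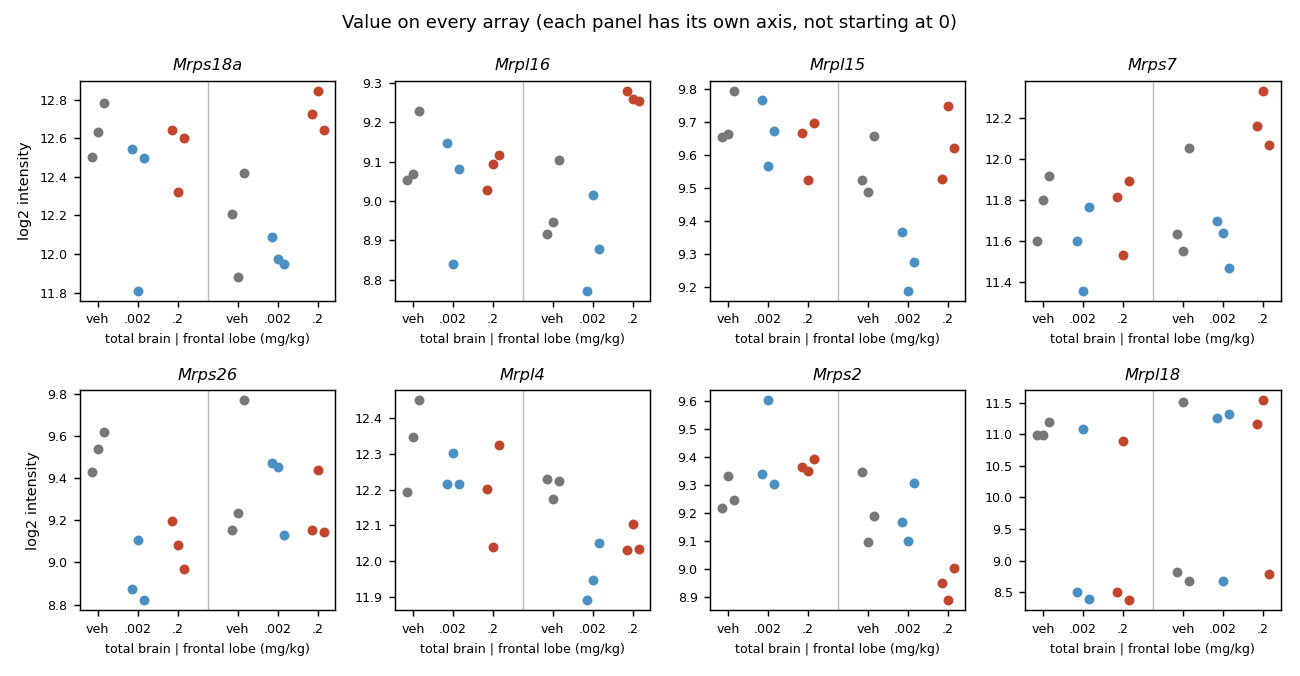
Log2 intensity on every array for 8 members, with total brain left and frontal lobe right of the grey line and the doses vehicle, 0.002 and 0.2 mg/kg in that order. Points are pups and each panel has its own axis; Mrps18a, Mrpl16 and Mrps7 are highest at 0.2 mg/kg among the frontal lobe groups, Mrps26 is highest in total brain vehicle among the total brain groups, and Mrpl18 takes 2 levels 2.07 apart.

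In total brain no member was called in any dose comparison, and no probe was either: 0% of all probes for 0.002 mg/kg against vehicle, 0% for 0.2 mg/kg against vehicle and 0% for 0.2 against 0.002 mg/kg. At 0.002 mg/kg the median of the members was -0.12 with 50 of 59 below 0. At an unadjusted p under 0.05, no member was higher, where 3.34% of all probes were. Lower were 4 members (6.78%), where 3.18% of all probes were. Mrps26, a small subunit protein specific to mitochondria, read 8.88, 9.11 and 8.82 at 0.002 mg/kg, against 9.43, 9.54 and 9.62 in vehicle pups, a difference of -0.60 ± 0.09 with an adjusted p of 0.396. It was followed by Mrps35 (-0.39 ± 0.10), Mrpl21 (-0.36 ± 0.14) and Mrps23 (-0.25 ± 0.11), each with an adjusted p of 0.733, and by Mrpl19 (-0.20), just outside an unadjusted p of 0.05. All 5, picked by p, had separate groups. In the higher direction the first by p were Mrps2 (0.15), Mrpl44 (0.05), Mrpl14 (0.03), Mrps10 (0.35) and Mrps15 (0.04), with adjusted p between 0.736 and 0.895.

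At 0.2 mg/kg in total brain the median was -0.03 with 41 of 59 below 0. At an unadjusted p under 0.05, no member was higher, where 2.11% of all probes were. Where 2.21% of all probes were lower, so were 2 members (3.39%). These were Mrps26 again, at 9.20, 9.08 and 8.97, below the same vehicle pups, with a difference of -0.45 ± 0.09 and an adjusted p of 0.854, and Mrps14. Mrps14, a conserved small subunit protein, read 10.96, 10.88 and 10.86 at 0.2 mg/kg, against 11.03, 11.31 and 11.22 in vehicle pups, a difference of -0.29 ± 0.07 with an adjusted p of 1.00. Mrpl18 (-1.80), Mrpl4 (-0.14) and Mrps35 (-0.17) followed, and in the higher direction Mrpl14 (0.06), Mrps31 (0.05), Mrps2 (0.10), Mrps24 (0.09) and Mrps5 (0.05), all of them with an adjusted p of 1.00. Mrps12 differed from vehicle by -0.03 at 0.2 mg/kg and by -0.23 at 0.002 mg/kg. The median of the members changed sign, to 0.04, without replicate 2 of 0.2 mg/kg.

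Between the doses in total brain, the median was 0.08 with 44 of 59 above 0. At an unadjusted p under 0.05, no member was lower, where 2.98% of all probes were. Mrpl21, a large subunit protein, was the 1 member (1.69%) that was higher, where 2.88% of all probes were. It read 11.25, 11.13 and 11.44 at 0.2 mg/kg, against 11.06, 10.65 and 11.12 at 0.002 mg/kg, a difference of 0.33 ± 0.14 with an adjusted p of 0.780. Mrps24 (0.25), Mrps35 (0.22), Mrps18c (0.28) and Mrps25 (0.35) had the next smallest p in that direction, and Mrpl44 (-0.11), Mrps14 (-0.13), Mrps30 (-0.08), Mrpl35 (-0.17) and Mrps10 (-0.39) in the other. The array of 0.002 mg/kg on which 33 members were lowest enters here; without it the median was 0.03. Same-numbered arrays of these doses deviated together over all probes, with correlations of 0.24, 0.44 and 0.16. By number, the family mean without Mrpl18 was 10.56 at 0.2 against 10.45 at 0.002 mg/kg, 10.36 against 10.30 and 10.56 against 10.48. Mrpl18 was low, high and low in both. The labels give no pairing, and the numbers were matched because of these correlations, so the matching adds no support. With the number as a block on these 6 arrays, a fit added after seeing the data, no member was called, and Mrpl21 had an adjusted p of 0.253.

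Whether a dose acted differently in the tissues was tested as the difference of the responses, frontal lobe minus total brain, on all 18 arrays. No member was called for 0.002 mg/kg (0% of all probes) or for 0.2 mg/kg (0.204% of all probes). At 0.002 mg/kg the smallest adjusted p was 0.938. At 0.2 mg/kg the largest departure by p was Mrps14, which was higher against vehicle by 0.16 in frontal lobe and lower by -0.29 in total brain, a difference of 0.45 ± 0.10 with an adjusted p of 0.0941. Mrps18a gave 0.68 ± 0.25 (adjusted p 0.275) and Mrpl16 0.31 ± 0.11 (adjusted p 0.274). Mrps2 ran the other way, with -0.37 ± 0.11 and an adjusted p of 0.193. The median over the members was -0.00 at 0.002 mg/kg and 0.15 at 0.2 mg/kg, against 0.00 for all probes at both. Without replicate 1 of total brain vehicle, or without replicate 3 of frontal lobe vehicle, 1 member was called, with the share of all probes in those fits not given here.

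Between the vehicle groups, 2 members were called higher in frontal lobe than in total brain, where 9.01% of all probes were, and 9 were called lower, where 43.7% of all probes were. The median difference was -0.07 for the members and -0.07 for all probes, but the calls did not match. Called higher were 3.39% of the members and called lower 15.3%, both smaller shares than among all probes. All probes are an unlike background here too, as 56 of 59 members lay above the median brightness. The median within-group SD was 0.149 in frontal lobe and 0.156 in total brain for members, against 0.0511 and 0.0460 for all probes. The shares therefore do not show that members differ less between the tissues than probes of like brightness, whose shares are not given here. Array medians also differed between the tissues, lower in frontal lobe. Mrpl13 and Mrpl3, both conserved large subunit proteins, were the higher members. Mrpl13 read 12.18, 12.08 and 12.32 in frontal lobe, against 11.74, 11.87 and 11.91 in total brain, a difference of 0.36 ± 0.09 with an adjusted p of 0.00618, and Mrpl3 read 11.16, 11.11 and 11.31 in frontal lobe, against 10.98, 10.98 and 11.01 in total brain, a difference of 0.20 ± 0.07 with an adjusted p of 0.0191. Neither pair of groups overlapped.

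The lower members were Mrps11, Mrps14, Mrps27 and Mrps35 of the small subunit and Mrpl19, Mrpl43, Mrpl44, Mrpl45 and Mrps18a of the large. Mrps11 read 10.46, 10.50 and 10.75 in frontal lobe, against 10.97, 10.93 and 11.25 in total brain, a difference of -0.48 ± 0.13 with an adjusted p of 0.00714. Mrps27, a pentatricopeptide repeat protein, read 9.11, 8.95 and 9.23 in frontal lobe, against 9.35, 9.49 and 9.60 in total brain, and differed by -0.38 ± 0.09 (adjusted p 0.00342). All 9 lower members, picked by adjusted p, had separate groups. Mrps14 differed by -0.33 ± 0.07 (adjusted p 0.00219), Mrpl43 by -0.34 ± 0.09 (0.00934) and Mrpl19 by -0.36 ± 0.10 (0.00991). Mrpl45, which ties the ribosome to the inner membrane at the tunnel exit, differed by -0.40 ± 0.15 (0.0337), Mrps35 by -0.37 ± 0.11 (0.0143) and Mrpl44, which has a ribonuclease III fold, by -0.18 ± 0.05 (0.00630). Mrps18a read 12.21, 11.88 and 12.42 in vehicle frontal lobe, against 12.50, 12.63 and 12.78 in vehicle total brain, a difference of -0.47 ± 0.17 with an adjusted p of 0.0359. Its 0.2 mg/kg frontal lobe values of 12.64 to 12.85 lay within or above the range of total brain vehicle. Array medians differed between the tissues and the normalization is not given, so levels of the tissues may not be on one scale. Some calls hang on single pups: Mrps18a and Mrpl45 were lost without replicate 2 or 3 of total brain vehicle and without replicate 1 or 2 of frontal lobe vehicle, Mrps35 without replicate 1 of total brain or 2 of frontal lobe vehicle, and Mrpl3 without replicate 3 of frontal lobe vehicle. With quantile normalization over both tissues 6 members were called, 2 of them higher, where 11 were called in the deposited values. The share of all probes called in that setting is not given here. Mrps18a, Mrpl45 and Mrpl44 were also lost with arrays centred on the median, and Mrpl3 and Mrpl44 with trend and robust variance. Mrpl13, Mrps27, Mrps11, Mrpl43 and Mrps14 were called in each setting tried, with each vehicle pup left out included.

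**Figure D4:**
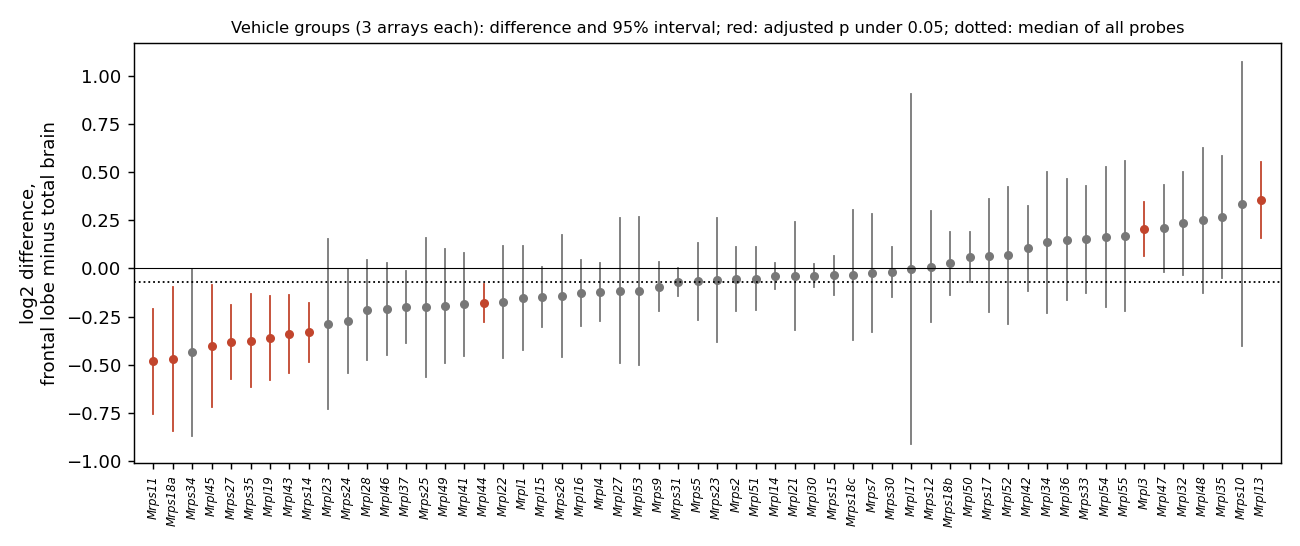
Log2 difference between the vehicle groups, frontal lobe minus total brain, for 58 members (all but Mrpl18) in order of size, with 95% intervals; red marks an adjusted p under 0.05. Red members are 2 above and 9 below 0, and the dotted line is the median of all probes, -0.07.

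Within groups, most members went up and down together from pup to pup. After subtracting each group's mean, the median correlation of a member with the mean of the other 58 was 0.72 over the 9 arrays of frontal lobe and 0.75 over those of total brain. It was above 0.5 for 40 and 43 members and below 0 for 7 and 6. These points share arrays and their normalization, so the values describe the arrays and carry no test. Mrps17 and Mrps5, proteins of the small subunit, tracked the family most closely across both tissues, with 0.98 and 0.96 in frontal lobe and 0.96 and 0.95 in total brain. Members that did not follow in either tissue included the dim Mrps31 and Mrps15, the 2-level Mrpl18 and also Mrps2 (-0.15 in frontal lobe, -0.30 in total brain). The called Mrpl16 had 0.14 in frontal lobe and 0.62 in total brain, and Mrps26 had 0.73 in frontal lobe and 0.04 in total brain. The median within-group SD of the members was 0.149 in frontal lobe and 0.156 in total brain, against 0.0511 and 0.0460 for all probes, most of which are near the floor. Mrpl17 (8.40 to 10.92) and Mrps10 (8.31 to 9.89) spread widely between pups as well, without a gap.

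**Figure D5:**
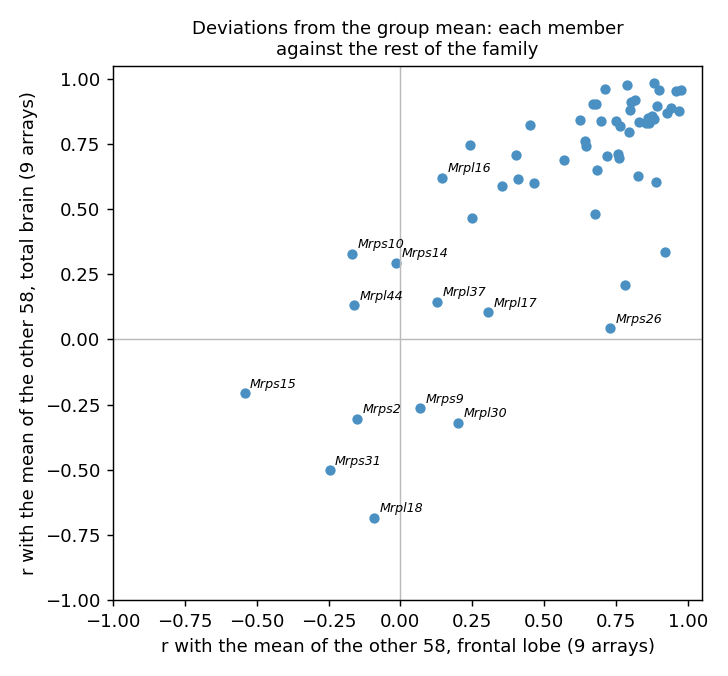
Correlation of each of 59 members with the mean of the other 58, after subtracting group means, in frontal lobe (horizontal axis) and total brain (vertical axis), 9 arrays each. Points are genes; those under 0.2 in either tissue are named, and most points crowd at the upper right, with medians of 0.72 and 0.75.

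Cytosolic ribosomal and respiratory genes mostly differed in the same direction as the family in the dose comparisons, on the same arrays. The exception by group means was the respiratory genes at 0.2 mg/kg against vehicle in total brain. They averaged 11.98 at 0.2 mg/kg and 11.96 in vehicle, where the family without Mrpl18 averaged 10.50 and 10.54. In frontal lobe at 0.2 against 0.002 mg/kg, 11 of 62 measured cytosolic ribosomal protein genes were called higher and none lower, with a median of 0.24. Of 71 genes of the respiratory chain and ATP synthase, 3 were called higher and 1 lower, with a median of 0.13. Among all probes, an unlike background for bright genes, 2.87% were called in this comparison. Against vehicle, 4 cytosolic ribosomal genes were called higher at 0.2 mg/kg in frontal lobe, with a median of 0.11. None of the respiratory genes were called there, with a median of 0.03, and 1.14% of all probes were called. At 0.002 mg/kg the medians were -0.09 and -0.12 in frontal lobe and -0.15 and -0.10 in total brain, with no call, beside -0.13 and -0.12 for the members. The mean of the cytosolic ribosomal genes was 12.71 ± 0.11 at 0.2 mg/kg and 12.45 ± 0.03 at 0.002 mg/kg (SD, n = 3 each). Of 5 mitochondrial ribosomal proteins without an Mrp symbol (Aurkaip1, Chchd1, Dap3, Gadd45gip1 and Ptcd3), 4 lay above 0 and none were called, with a median of 0.25. Among 23 genes of ribosome assembly and rRNA modification, 1 was called higher and 1 lower between these doses, where 2.87% of all probes were called. Mpv17l2, an inner membrane protein known in human cells for a part in ribosome assembly, rose: it read 11.64, 11.84 and 11.53 at 0.2 mg/kg, against 11.17, 10.95 and 10.89 at 0.002 mg/kg, a difference of 0.67 ± 0.13 with an adjusted p of 0.0394. Fastkd2, an RNA-binding protein of the mitochondrial RNA granules, fell by 0.25 ± 0.05 with an adjusted p of 0.0413.

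Of 8 regulators of mitochondrial biogenesis, Ppargc1a was the one called between the doses in frontal lobe, where 2.87% of all probes were called, and it was lower. Ppargc1a encodes PGC-1alpha, a coactivator that acts with NRF1 and GABP on nuclear genes of mitochondria. It read 8.14, 8.10 and 8.16 in frontal lobe at 0.2 mg/kg, against 8.71, 8.56 and 8.59 at 0.002 mg/kg, a difference of -0.49 ± 0.04 with an adjusted p of 0.00511. Against the vehicle pups, which read 8.46, 8.46 and 8.53, it differed by -0.35 ± 0.04 with an adjusted p of 0.0179. All of these values are close to the floor near 8. None of the 13 aminoacyl-tRNA synthetases, 9 translation factors or 11 genes of mitochondrial transcription and genome maintenance were called between the doses in frontal lobe, and their medians were -0.03, -0.13 and -0.01. In the other 5 dose comparisons, Ppargc1a against vehicle was the one called gene of these 6 lists. Among the 48 members with a promoter sequence, those with any of the 3 motifs had a median difference of 0.16 (n = 27) between the doses in frontal lobe, and those with none 0.22 (n = 21).

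Markers of cell types also differed between the same frontal lobe groups. At 0.2 against 0.002 mg/kg, Slc17a7 fell by 0.91, Snap25 by 0.73, Syt1 by 0.67 and Syp by 0.50, and Igfbp2 rose by 1.31 and Igf2 by 0.94, each called. Of the lists, 3 of 6 neuron markers and 1 of 2 markers of cortical projection neurons were called lower, where 2.87% of all probes were called in either direction. Neuron markers did not all point one way: 4 of 6 lay below 0, and Rbfox3 lay above it, at 0.11 with an adjusted p of 0.108. By contrast, 2 of 6 markers of meninges and fibroblasts were called higher, with all 6 above 0. Slc17a7 read 9.68, 9.50 and 9.89 at 0.2 mg/kg, against 10.65, 10.49 and 10.64 at 0.002 mg/kg, and it was 9.19 to 9.48 in vehicle total brain. Of 5 choroid plexus markers Aqp1 was called higher and Kcnj13 lower, and no astrocyte, oligodendrocyte, microglia, endothelial, red blood cell or hindbrain marker was called. At an unadjusted p under 0.05, however, all 4 red blood cell markers were higher, from 0.07 for Slc4a1 to 0.62 for Hbb, with adjusted p between 0.0843 and 0.170. Of 6 microglia markers 3 were higher at that level, Aif1 (0.58), C1qb (0.62) and C1qa (0.59), and P2ry12 was lower (-0.19), with adjusted p between 0.0864 and 0.222. Among the frontal lobe arrays, Slc17a7 was lowest on replicate 2 of 0.2 mg/kg, the array on which 34 members were highest. That array also correlated least with the other frontal lobe arrays over all probes, and a link was not tested. In bulk tissue, a different mix of cells and a different amount of RNA per cell cannot be told apart, and the part of cell composition in the members' differences was not tested.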

How the data were processed

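Values of 1 array per pup came from the series table. They are deposited on a log2 scale, or one close to it. The submitters' processing notes name lumi; its version, transformation, background correction and normalization are not given in the sources used. On a variance-stabilized scale, differences near the floor would be compressed. No transformation or filter was added. Probe names came from the platform annotation, and all 59 members matched the gene reference by Entrez identifier.

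Tests used limma (version 3.58.1, under R 4.3.3; lmFit, then eBayes) over all 22523 probes, within each tissue for doses and on all 18 arrays for the rest, and tested on simulated data. Named members are those called, up to 5 per direction and dose comparison by p, the 5 brightest and 5 dimmest, and Mrpl4, Mrps26 and Mrps12; Mrpl12, of the same rule, had no probe. Mrpl23, Mrpl34, Mrpl41, Mrpl46 and Mrps17 are also named, chosen after their values or places were seen. Members and lists were chosen with earlier results of these data known. Lists used 1 probe per gene, the brightest. Mrpl55, first listed with bacterial counterparts, was counted as specific to mitochondria.

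Deviations of same-numbered arrays correlated above 0.1 in 1 of 9 pairs in frontal lobe and 6 of 9 in total brain. Only between the doses in total brain did all 3 pairs pass, and only there were family means set side by side by number. That choice came from these data. Deviations from a mean of 3 arrays are not independent of each other, so a true pairing was not shown. The labels state no shared litter or batch. Alternatives were quantile and median normalization, probes at or above the median brightness, trend and robust variance, array weights, a replicate block, only the arrays compared, a threshold of 0.1, each replicate left out and, added after seeing the data, the 3 lower-case probes and the block on the 6 total brain arrays of both doses.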

Additional observations from a re-analysis of the deposited data

How the results depend on the processing

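The count of called members between the doses in frontal lobe was the least stable result. Against 3 as reported, it was 6 with probes at or above the median brightness, with trend and robust variance, with array weights, with only the arrays compared and at an adjusted p under 0.1, and 0 to 1 without single replicates. The 6 with only the arrays compared do not include Mrpl15. With the replicate block it was 0, with 65 probes called in all against 646. By the labels, the arrays of either tissue share only a number, so this is no measure of effect size. In total brain the block left the count at 0 in each dose comparison, also on the 6 arrays of both doses alone. At 0.2 mg/kg against vehicle in frontal lobe the count was 1 with the brighter probes, with trend and robust variance and at an adjusted p under 0.1, and 0 to 7 without single replicates. For the response to 0.2 mg/kg by tissue it was 1 at an adjusted p under 0.1 and 0 to 1 without single replicates. Between the vehicle groups it was 6 with quantile normalization, and the median ran from -0.165 to -0.0221 without single replicates and was 0.01 with quantile normalization. The medians of the 6 dose comparisons kept their sign in each setting, except 0.2 mg/kg against vehicle in total brain, which ran from -0.10 to 0.04 without single replicates and was 0.02 with array weights. Apart from the replicate block, calls over all probes in these settings are not given, so the counts have no background beside them. The cause of these changes was not tested, apart from the fewer arrays or probes that a setting leaves.

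Of 1159 values of named members under the alternatives, 15 changed sign, none of them a called difference. Array weights gave 0.0647 for Mrps12 (0.2 mg/kg against vehicle, total brain) and 0.0545 for Mrps26 (0.002 mg/kg against vehicle, frontal lobe). Without single replicates, in total brain, Mrps10 ran from -0.0146 to 0.770 and Mrps15 from -0.000218 to 0.0578 at 0.002 mg/kg, Mrps12 from -0.12 to 0.11, Mrps5 from -0.0195 to 0.126 and Mrps24 from -0.0262 to 0.179 at 0.2 mg/kg, and Mrpl35 from -0.284 to 0.0226 and Mrpl4 from -0.123 to 0.0185 between the doses. In frontal lobe, Mrps26 ran from -0.15 to 0.16, Mrpl19 from -0.0673 to 0.165 and Mrpl49 from -0.11 to 0.21 at 0.002 mg/kg, and Mrps26 from -0.256 to 0.0506 at 0.2 mg/kg.

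The 3 pups per group limit the precision, and 3 members lie at the floor of the arrays.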
